A study of Mus musculus with 2 samples.

Results

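The S100 proteins are small calcium-binding proteins, and their genes were followed here on 2 two-colour microarrays of polarized mouse lymphocytes. The 8 members were S100a1, S100a4, S100a6, S100a8, S100a9, S100a10, S100a11 and S100a13, taken as the probes annotated to one of these gene symbols alone. Each member had 1 probe, so the set comprised 8 of the 36547 probes and 8 of the 17501 named genes. One array carried RNA of Th17-polarized lymphocytes together with RNA of Th0 lymphocytes, and the other carried RNA of Th1-polarized lymphocytes together with RNA of Th0 lymphocytes. All these lymphocytes came from a TRP-1 mouse, a strain with T cells directed at a melanoma antigen, and neither its age nor its sex is given in the labels. The polarized RNA was labelled with Cy5 and the Th0 RNA with Cy3, from 500 ng of total RNA. The cytokines used for polarization, the culture time, the purity of the cells and any pooling of animals are not stated in the sources used here. There was 1 array per comparison with no dye swap, so no value below has a replicate and none was tested, and the number of arrays limits the precision.

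An S100 protein carries a pair of EF-hand loops and usually works as a dimer that exposes a binding face for a target protein when calcium enters the cell. S100a8 and S100a9 encode the subunits of calprotectin, the main cytosolic protein of neutrophils, which cells release as a danger signal and which binds zinc and manganese. S100a4, S100a6, S100a10 and S100a11 are expressed more widely and bind cytoskeletal proteins and annexins, and in mouse T cells they are known from antigen-experienced rather than naive cells.

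The direction of the deposited log2 ratio is not settled, so each value below keeps its deposited sign. Titles and dyes name the polarized population over Th0, but the table itself states no numerator. The cytokine genes that define the lineages lay on the negative side. Il17a lay at −5.37 and Il22 at −5.79 on the Th17 and Th0 array, and Ifng at −2.02 on the Th1 and Th0 array. The other Th17 genes measured on the lineage list, Il21, Il17f and Il23r, lay at −4.17, −2.38 and −1.88 on the Th17 and Th0 array. The other Th1 genes measured, Tbx21 and Il12rb2, lay at −1.25 and −0.59 on the Th1 and Th0 array. Read as titled, a positive value is higher expression in the polarized cells than in Th0 cells. Il17a would then be 41.4-fold and Il22 55.5-fold lower in Th17-polarized cells than in Th0 cells. If the sign is turned, a positive value is higher expression in the Th0 cells, and the cytokine genes are then higher in the polarized cells. Every positive S100 value therefore lay on the side opposite to these cytokine genes, whichever reading holds. Ratios of the arrays correlated positively over all probes (r = 0.53), and both arrays contain Th0 RNA. The median over probes was −0.05 on the Th17 and Th0 array and −0.11 on the Th1 and Th0 array.

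The S100 genes stand close together in the genome, and the bases before their start sites are shown for 3 pairs whose values are compared below. Each line gives the last 100 bases before the start site of the RefSeq promoter table (build GRCm38.p6), 5′ to 3′ on the strand of the gene, and capitals mark a match to TATAAA (the TATA box), TGANTCA (the site of AP-1) or GAGGAA (a core bound by Ets factors such as PU.1) on either strand. S100a8 is at chr3:90668971-90669070 (+), S100a9 at chr3:90695722-90695821 (−), S100a4 at chr3:90603670-90603769 (+), S100a6 at chr3:90612794-90612893 (+), S100a13 at chr3:90514335-90514434 (+) and S100a1 at chr3:90514331-90514430 (−).
S100a8: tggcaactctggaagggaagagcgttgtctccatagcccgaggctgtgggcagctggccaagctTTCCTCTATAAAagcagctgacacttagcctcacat
S100a9: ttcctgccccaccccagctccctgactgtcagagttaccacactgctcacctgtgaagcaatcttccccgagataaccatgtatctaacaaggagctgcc
S100a4: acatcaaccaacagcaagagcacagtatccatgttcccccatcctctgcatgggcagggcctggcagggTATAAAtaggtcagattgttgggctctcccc
S100a6: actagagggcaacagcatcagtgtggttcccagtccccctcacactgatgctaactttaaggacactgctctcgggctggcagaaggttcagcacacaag
S100a13: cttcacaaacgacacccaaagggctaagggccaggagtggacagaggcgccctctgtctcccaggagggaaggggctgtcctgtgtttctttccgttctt
S100a1: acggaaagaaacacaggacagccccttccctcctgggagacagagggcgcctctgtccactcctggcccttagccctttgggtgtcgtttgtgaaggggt

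Over the 250 bases before the start, TATAAA was found in S100a8, where it begins 30 bases before the start, and in S100a4, where it begins 31 bases before it. It was not found in the windows of the other 5 members with an entry, and 12.4% of all 32851 promoters of the table hold it. GAGGAA was found in S100a8, in reverse at 170 and 36 bases before the start, and in S100a11, against 23.3% of all promoters. The reverse copy nearer to the start of S100a8 directly adjoins its TATAAA. The AP-1 motif was found in S100a11 alone, at 136 and 38 bases before the start, against 6.75% of all promoters. The printed bases of S100a13 and S100a1 share 96 positions, read on opposite strands, so these genes start from the same stretch of DNA in opposite directions. These matches describe the letters and no binding was measured.

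All 8 members lay on the positive side of the Th17 and Th0 array, as did 8109 of the 17501 named genes. Each of the 3 other centrings moved this array upward, so none could turn a positive member negative. Of the members, 5 were at least 2-fold apart on the positive side. Of all named genes 2.9% were at least 2-fold on that side, and 5.52% on the negative side, where 0 members lay. On the Th1 and Th0 array, 2 of 8 members were at least 2-fold on the positive side, against 3.27% of all genes, and 0 on the negative side, against 6.92%. Under centring on the most repeated value 5 members were past 2-fold on the positive side of the Th1 and Th0 array, and so were 29.8% of all genes. The median of the members was 1.18 on the Th17 and Th0 array and 0.37 on the Th1 and Th0 array, against −0.03 and −0.08 over all named genes. Both members past 2-fold on the Th1 and Th0 array were the calprotectin genes, which also passed on the Th17 and Th0 array together with S100a4, S100a6 and S100a10.

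**Figure D1:**
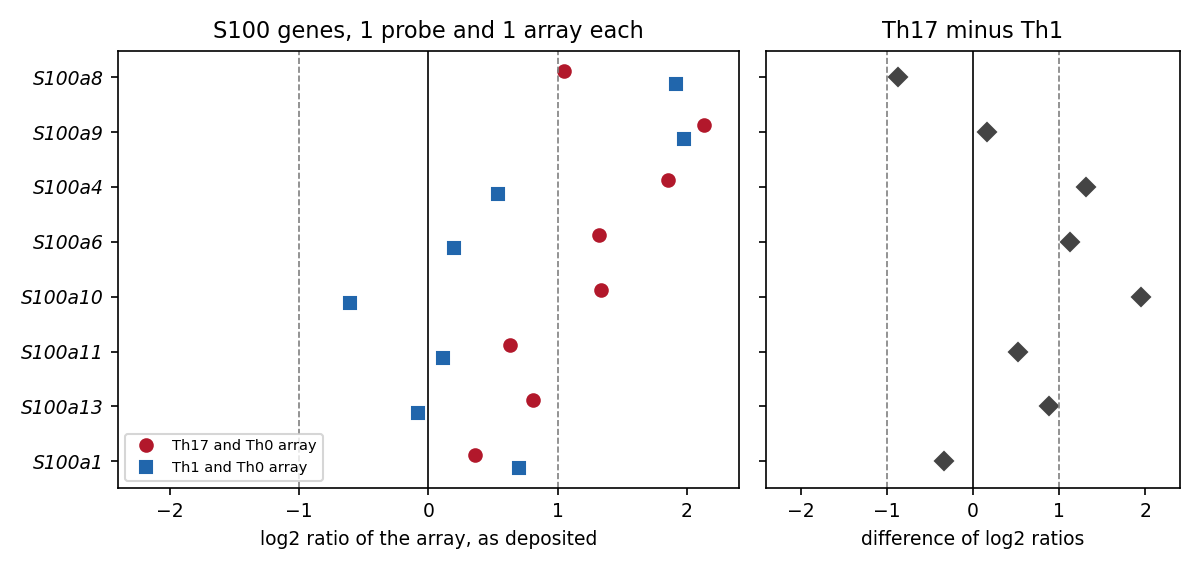
Left, deposited log2 ratios of the 8 S100 genes on the Th17 and Th0 array (red circles) and the Th1 and Th0 array (blue squares). Right, the Th17 value minus the Th1 value. Each point is 1 probe on 1 array, without an error bar, and dashed lines mark 2-fold. S100a9 lies near 2 on both arrays, while S100a10 lies at 1.34 on the Th17 and Th0 array and −0.61 on the Th1 and Th0 array.

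The calprotectin genes lay far out on both arrays. S100a9, whose product is the larger calprotectin subunit, lay at 2.14 (4.40-fold) on the Th17 and Th0 array and at 1.98 (3.94-fold) on the Th1 and Th0 array. Of all named genes, 0.543% lay above it on the Th17 and Th0 array and 0.514% on the Th1 and Th0 array. S100a8, which encodes the smaller subunit, lay at 1.05 (2.07-fold) on the Th17 and Th0 array and at 1.92 (3.78-fold) on the Th1 and Th0 array, with 2.61% and 0.566% of genes above it. The partners were thus nearly equal on the Th1 and Th0 array, where S100a9 exceeded S100a8 by 0.06. On the Th17 and Th0 array S100a9 exceeded S100a8 by 1.09.

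S100a4 and S100a6 were past 2-fold on the Th17 and Th0 array and, as deposited, not on the Th1 and Th0 array. S100a4, which binds the heavy chain of non-muscle myosin and is linked to cell motility, lay at 1.86 (3.62-fold) on the Th17 and Th0 array and at 0.54 (1.45-fold) on the Th1 and Th0 array. S100a6, also known as calcyclin, lay at 1.32 (2.49-fold) and 0.20 (1.15-fold) on these arrays. On the Th1 and Th0 array centring on control genes gave −0.06 for S100a6, whereas centring on the most repeated value gave 1.39 for S100a4 and 1.04 for S100a6, both past 2-fold. On the Th17 and Th0 array 0.766% of all genes lay above S100a4 and 1.61% above S100a6, so both were among the outlying genes there. On the Th1 and Th0 array 10.7% and 26.5% of genes lay above them.

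S100a10 and S100a11 encode the annexin partners. S100a10, also called p11, forms a tetramer with annexin A2 at membranes and has lost its response to calcium. It lay at 1.34 (2.53-fold) on the Th17 and Th0 array and at −0.61 (1.52-fold) on the Th1 and Th0 array, and so was the one member with a sizeable value on opposite sides. Centring on the most repeated value moved the second value to 0.24. S100a11, whose protein binds annexin A1, lay at 0.63 (1.55-fold) on the Th17 and Th0 array and at 0.11 on the Th1 and Th0 array, where centring on control genes gave −0.14. As deposited, S100a11 thus passed 2-fold on neither array, and centring on the most repeated value gave 1.06 on the Th17 and Th0 array.

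As deposited, S100a13 and S100a1 passed 2-fold on neither array. S100a13, needed for the release of the signal-less proteins fibroblast growth factor 1 and interleukin 1 alpha, lay at 0.81 (1.75-fold) on the Th17 and Th0 array and at −0.08 on the Th1 and Th0 array. The value on the Th1 and Th0 array was 0.03 after centring on the median and 0.77 after centring on the most repeated value. S100a1, best known from heart and skeletal muscle, lay at 0.36 (1.28-fold) on the Th17 and Th0 array and at 0.70 (1.62-fold) on the Th1 and Th0 array. Centring on the most repeated value gave 1.23 for S100a13 on the Th17 and Th0 array and 1.55 for S100a1 on the Th1 and Th0 array. S100a1 and S100a8 were the members with the larger positive value on the Th1 and Th0 array. The order of S100a1 and S100a13, which share the promoter bases shown above, differed between arrays. S100a13 lay 0.45 above S100a1 on the Th17 and Th0 array and 0.78 below it on the Th1 and Th0 array. The gap of 0.45 was smaller than the pooled SD between probes of a gene on that array (0.49), so the order there is not settled.

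Different probes of a gene are the one repeat measurement in the table. Their pooled SD over 5886 genes with several probes was 0.49 on the Th17 and Th0 array and 0.51 on the Th1 and Th0 array, a spread between probes and not between samples. From the highest value to the lowest, the order on the Th17 and Th0 array was S100a9, S100a4, S100a10, S100a6, S100a8, S100a13, S100a11 and S100a1. Neighbours in that order lay 0.02 to 0.52 apart, and 1 of the 7 gaps, between S100a4 and S100a10, exceeded the probe SD. On the Th1 and Th0 array the order was S100a9, S100a8, S100a1, S100a4, S100a6, S100a11, S100a13 and S100a10, and 2 of the 7 gaps exceeded the probe SD. These were the gap of 1.22 between S100a8 and S100a1 and the gap between S100a13 and S100a10. A gap is a difference between 2 probes, which spreads more widely than the SD of 1 probe. A gap just past that SD, as between S100a4 and S100a10, therefore does not settle an order. No member matched a ratio with a weaker channel of at most 5 units on either array. This pattern of very dim spots was found for 1.43% of genes on the Th17 and Th0 array and 2.15% on the Th1 and Th0 array. The search used means over probes, so genes with several probes could seldom match. With shares this low, the absence of a match says little about the signal of the members.

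To compare Th17 with Th1 cells, the value on the Th1 and Th0 array was subtracted from that on the Th17 and Th0 array. This takes the Th0 RNA of both to be the same, a point the labels do not state. S100a10 differed most, by 1.95 (3.85-fold), and 0.903% of all named genes had a higher difference. S100a4 differed by 1.32 (2.49-fold) and S100a6 by 1.12 (2.18-fold). These 3 members were at least 2-fold apart on the positive side, against 4.53% of all genes, while 0 members were on the negative side, against 3.61%. Centring on the most repeated value changed this, with S100a10 at 1.52 as the 1 positive member past 2-fold and S100a8 at −1.29 as the 1 negative one, against 2.11% and 9.49% of all genes under that centring. S100a13 and S100a11 lay at 0.89 and 0.52, S100a9 at 0.16, S100a1 at −0.34 and S100a8 at −0.87 (1.83-fold). The median difference of the members was 0.70, against 0.04 over all genes. The Th17 cytokine genes lay on the other side, with Il17a at −5.67. With a pooled probe SD of 0.52 for the difference, the values of S100a9 and S100a1 were smaller than the spread between probes of a gene and that of S100a11 about equal to it.

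**Figure D2:**
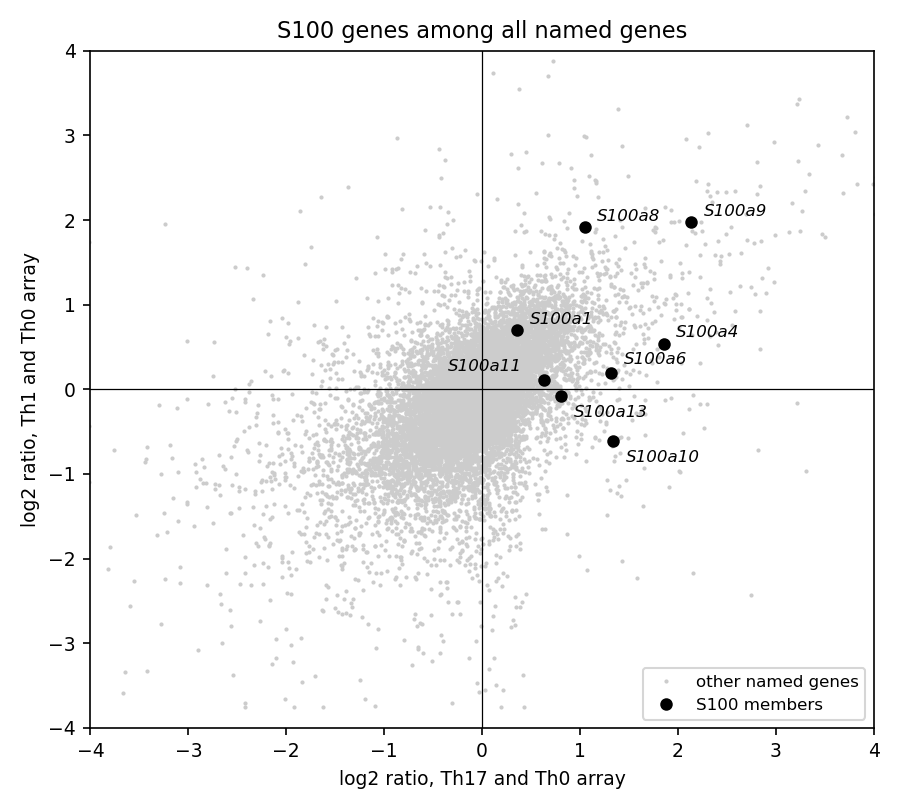
Each point is a named gene, with its deposited log2 ratio on the Th17 and Th0 array (x axis) and on the Th1 and Th0 array (y axis). Black points are the 8 S100 genes, grey points all other genes, and 76 genes beyond 4 on either axis are outside the plot. S100a8 and S100a9 lie high on the y axis, while S100a4, S100a6 and S100a10 lie to the right, between −0.61 and 0.54 on the y axis.

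The genes with the most similar pair of values were listed for the 5 members past 2-fold on an array. Likeness was the distance in log2 units over these 2 arrays, and 30 to 177 genes lay within 0.5 of a member, so the likeness is weak. Nearest to S100a8 were Dennd3, Ubash3b and Ccl3, with 52 genes within 0.5, and nearest to S100a9 were 3300005D01Rik, Mamdc2 and Atp1b1, with 30. Hs3st1, Efnb2 and the glucose transporter gene Slc2a3 were nearest to S100a4, at distances of 0.04, 0.10 and 0.17. Adam8, Prr36 and Fam20a were nearest to S100a6, and Klra10, Galnt3 and Dennd4c to S100a10. No other S100 gene was among them.

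The other S100 genes had lower medians. Since the members were chosen with earlier results of these data known, this contrast can follow from the choice. Over all 15 measured S100 genes the medians were 0.63 on the Th17 and Th0 array and −0.08 on the Th1 and Th0 array. Of these 15, 5 were at least 2-fold positive and 1 negative on the Th17 and Th0 array. On the Th1 and Th0 array 2 were positive and 1 negative. The platform measured 7 of 10 listed further family members, with a median of −0.12 on the Th17 and Th0 array and −0.18 on the Th1 and Th0 array, and both medians turned positive, to 0.30 and 0.67, when centred on the most repeated value. S100b, a glial protein, lay at −1.47 on the Th17 and Th0 array and at −0.91 on the Th1 and Th0 array. S100g, the vitamin D-dependent calbindin of the gut, lay at 0.87 on the Th17 and Th0 array and at −1.71 on the Th1 and Th0 array, a difference of 2.58. Neither gene belongs to the cluster that holds the 8 members. The fused-type S100 genes of the skin barrier were measured for 3 of 7, of which Hrnr lay at 0.22 on the Th17 and Th0 array and at −1.06 on the Th1 and Th0 array.

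All 8 members belong to the S100 cluster of mouse chromosome 3, of which the platform measured 13 of 15 genes. The 5 measured genes there that are not members lay between −0.34 and 0.15 on the Th17 and Th0 array. On the Th1 and Th0 array they lay between −0.35 and 0.09, and 0 of them were 2-fold apart on either array. This contrast with the members can also follow from how the members were chosen. S100a5, which stands between S100a4 and S100a6, lay at −0.28 on the Th17 and Th0 array and −0.10 on the Th1 and Th0 array. On the Th17 and Th0 array it was 2.13 below S100a4 and 1.60 below S100a6. S100a7a, the neighbour of S100a6 and S100a8, lay at −0.34 on the Th17 and Th0 array and −0.14 on the Th1 and Th0 array. On the Th17 and Th0 array, genes past 2-fold thus alternated with genes near 0 from S100a4 to S100a8, and S100a8 and S100a9 formed the one adjacent pair that was past 2-fold on both arrays. S100a11 and S100a10 stand next to each other beyond 54 other protein-coding genes, and of this pair S100a10 alone passed 2-fold on the Th17 and Th0 array.

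**Figure D3:**
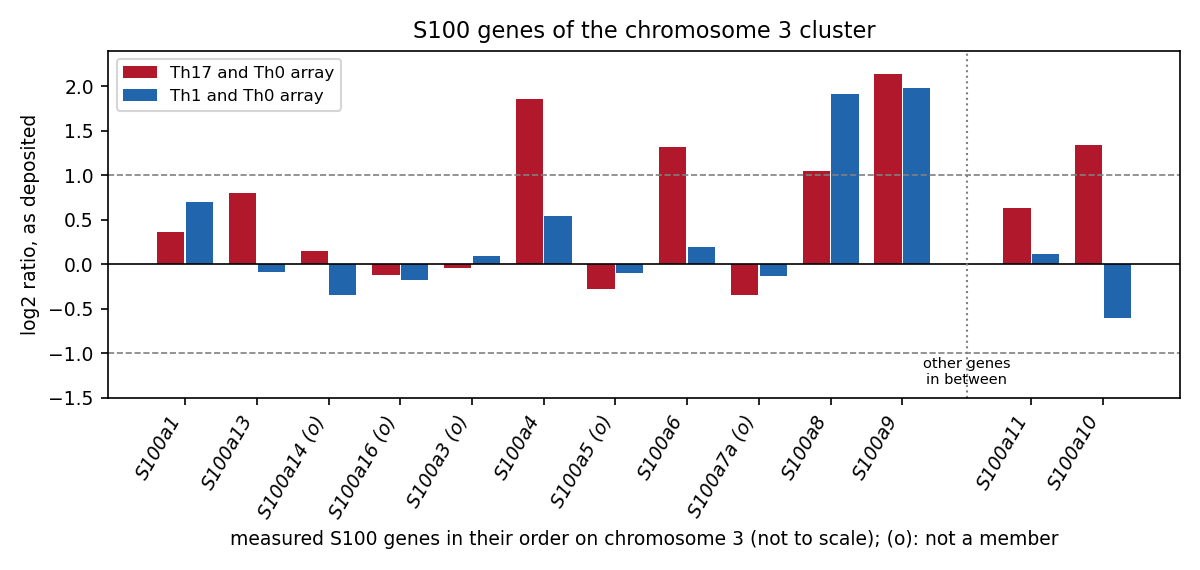
Bars give the deposited log2 ratios of the 13 measured S100 genes on the Th17 and Th0 array (red) and the Th1 and Th0 array (blue), in their order on chromosome 3, not to scale. Genes marked (o) are not members, and dashed lines mark 2-fold. On the Th17 and Th0 array, S100a5 and S100a7a lie near 0 between neighbours past 2-fold.

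Calprotectin is a neutrophil protein, so markers of myeloid cells are given beside S100a8 and S100a9. Of all named genes 2.9% were at least 2-fold positive and 5.52% negative on the Th17 and Th0 array. These shares were 3.27% and 6.92% on the Th1 and Th0 array, and 4.53% and 3.61% in the difference. The counts of each list from here on stand against these shares. Neutrophil markers lay on the positive side too. Of 20 measured, 12 were at least 2-fold positive and 1 negative on the Th17 and Th0 array, and 10 positive and 0 negative on the Th1 and Th0 array. Their median was 1.34 on the Th17 and Th0 array, with a range of −2.16 to 2.98, and 0.97 on the Th1 and Th0 array, with a range of −0.23 to 3.12. The granule genes Mpo (myeloperoxidase) and Ctsg (cathepsin G) lay at 2.98 and 2.70 on the Th17 and Th0 array and at 1.26 and 3.12 on the Th1 and Th0 array. Ngp, the neutrophilic granule protein gene, lay at 2.43 on the Th17 and Th0 array and 1.52 on the Th1 and Th0 array, and Chil3, a chitinase-like gene of macrophages and neutrophils, at −0.43 and 2.16. The granule genes therefore lay on the same side as S100a8 and S100a9 on both arrays. Their part in the S100 values was not tested. The purity of the cells is not stated. In total RNA of many cells, a different number of cells of a type and a different amount of RNA per cell cannot be told apart.

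Monocyte and macrophage markers lay far on the positive side of the Th1 and Th0 array. Of 19 measured members, 5 were at least 2-fold positive and 1 negative on the Th17 and Th0 array, against 12 positive and 0 negative on the Th1 and Th0 array, with medians of 0.38 and 1.49. In the difference their median was −1.21, with 10 of 19 at least 2-fold negative and 1 positive, and 4 lay above 0. Lyz1 and Apoe, genes of lysozyme and apolipoprotein E, differed between Th17 and Th1 by −3.84 and −3.16, the Fc receptor chain gene Fcer1g by −1.92 and the monocyte receptor gene Cd14 by −2.88, while the chemokine receptor gene Ccr2 was the positive one at 2.22. S100a8 with a difference of −0.87 lay on the side of the median and S100a9 with 0.16 did not, although its difference was −0.26 under centring on the most repeated value. Mast cell, basophil and eosinophil markers had medians of 0.90 on the Th17 and Th0 array and 1.85 on the Th1 and Th0 array, with 7 and 12 of 17 members at least 2-fold positive and 0 negative on either array. Prss34 and Mcpt8, basophil proteases, lay at 1.39 and 1.04 on the Th17 and Th0 array and at 3.31 and 3.0 on the Th1 and Th0 array. Fcer1a, the IgE receptor chain, lay at 0.61 on the Th17 and Th0 array and 2.67 on the Th1 and Th0 array, and Prg2, an eosinophil granule protein, at 2.70 and 2.07.

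Lymphocyte markers lay elsewhere. Pan T cell genes were mostly negative, with a median of −1.0 on the Th17 and Th0 array, with 5 of 10 genes at least 2-fold negative and 0 positive, and of −0.61 on the Th1 and Th0 array, with 2 negative and 0 positive. Under centring on the most repeated value these medians became −0.57 and 0.24. Cd4 lay at −1.27 on the Th17 and Th0 array and −1.17 on the Th1 and Th0 array, Cd3d at −1.0 and −1.43, Cd5 at −1.34 and −0.52, and Cd2 at −1.26 and −0.70. All 8 S100 members lay opposite to these 4 genes on the Th17 and Th0 array, while 2 of the 10 T cell genes, Cd3g at 0.43 and Cd3e at 0.14, were on the side of the members (both named after their values were seen). B cell markers had medians of 0.14 and −0.08 over 8 genes on the 2 arrays, with Cr2 at −1.25 and −1.12. Since the table holds ratios and no levels, whether a marker was expressed at all was not assessed.

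**Figure D4:**
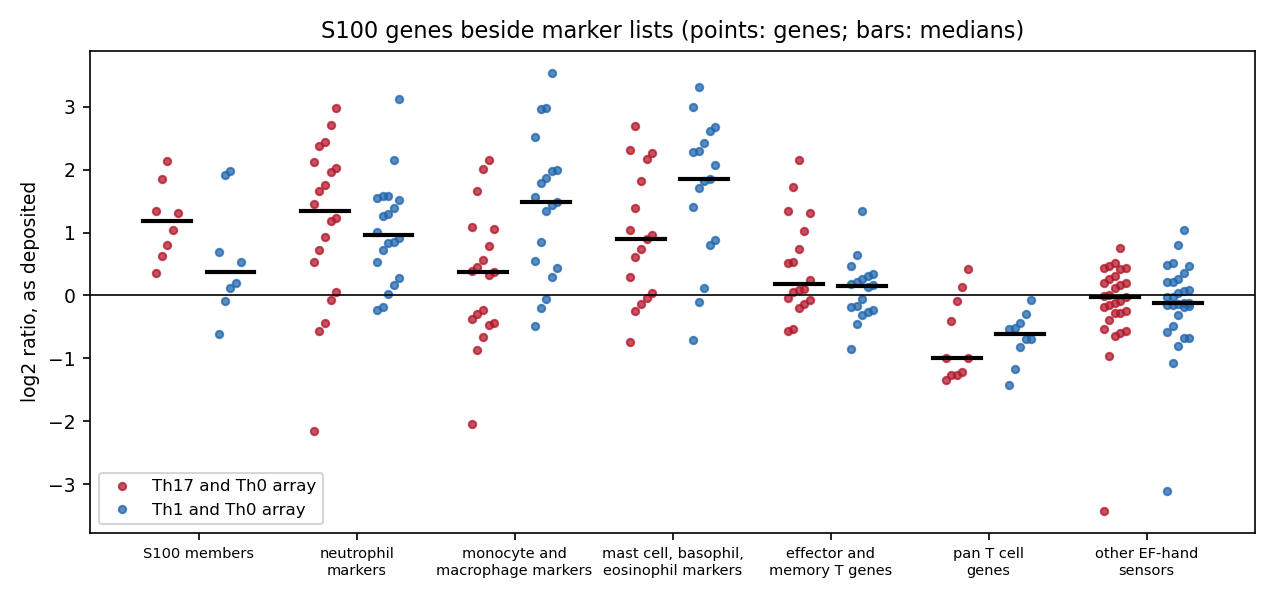
Points are genes and black bars medians of the deposited log2 ratios on the Th17 and Th0 array (red) and the Th1 and Th0 array (blue), for the 8 S100 genes and 6 other lists. The S100 median of 1.18 on the Th17 and Th0 array lies near the neutrophil median of 1.34, and the S100 median of 0.37 on the Th1 and Th0 array lies below the medians of the 3 myeloid lists.

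Some genes often seen with S100a4 and S100a6 in effector and memory T cells were also past 2-fold on the positive side. Of 18 measured genes 5 were at least 2-fold positive on the Th17 and Th0 array, against 2.9% of all named genes. There 0 were negative, against 5.52%. On the Th1 and Th0 array 1 was positive, against 3.27%, and 0 negative, against 6.92%. This list was chosen with earlier results of these data known. Its medians were 0.18 on the Th17 and Th0 array and 0.16 on the Th1 and Th0 array. The second median was −0.10 under centring on control genes. The receptor genes Ccr2 and Cxcr3 lay at 2.16 and 1.34 on the Th17 and Th0 array and at −0.06 and −0.84 on the Th1 and Th0 array, differences of 2.22 and 2.19. As deposited, both were past 2-fold on the Th17 and Th0 array and not on the Th1 and Th0 array, as were S100a4, S100a6 and S100a10, and Ccr2 is on the monocyte list too. Lmna, the gene of nuclear lamin, lay at 1.31 on the Th17 and Th0 array and at 1.34 on the Th1 and Th0 array, over 4 probes. Lgals1, which encodes galectin 1 and is often seen in these cells, lay at −0.20 on the Th17 and Th0 array and 0.17 on the Th1 and Th0 array.

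The protein partners of the S100 family were read from 3 lists. Annexins had medians of 0.37 on the Th17 and Th0 array and 0.29 on the Th1 and Th0 array over 12 genes, with 1 positive and 1 negative gene past 2-fold on the first and 2 positive and 1 negative on the second. Anxa1, the partner of S100a11, lay at 1.72 on the Th17 and Th0 array and 0.35 on the Th1 and Th0 array, a difference of 1.38. Anxa2, the partner of S100a10, lay at 0.52 on the Th17 and Th0 array and 0.65 on the Th1 and Th0 array, a difference of −0.13. S100a10 thus differed between Th17 and Th1 by 1.95 while its partner gene did so by less than the probe SD. Anxa3 and Anxa4 lay at 0.36 and −0.45 on the Th17 and Th0 array and at 2.19 and 1.16 on the Th1 and Th0 array, and Anxa10 at −1.43 and −1.97.

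Receptors and surface partners had a median of −0.14 on the Th17 and Th0 array, with 1 of 11 genes at least 2-fold positive and 3 negative, and −0.04 on the Th1 and Th0 array, with 2 positive and 0 negative. These medians were 0.28 and 0.81 under centring on the most repeated value. Tlr4, a receptor of calprotectin, lay at −0.14 on the Th17 and Th0 array and 0.27 on the Th1 and Th0 array over 3 probes, and Ager, the receptor for advanced glycation end products, at 0.01 and −0.07 over 2 probes. Neither receptor gene followed S100a8 and S100a9 past 2-fold. The scavenger receptor gene Cd36 lay at 2.04 on the Th17 and Th0 array and 1.32 on the Th1 and Th0 array, Cd14 at −2.04 and 0.84, Cd68 at −0.23 and 1.57, and Mcam at −1.44 and −0.19. Intracellular targets had medians of −0.11 and −0.09 over 20 genes on the 2 arrays, with 1 negative gene past 2-fold on each and 0 positive. The targets past 2-fold were Il1a at −1.69 on the Th17 and Th0 array, where its 2 probes had an SD of 1.58, and Plg, the plasminogen gene, at −1.09 on the Th1 and Th0 array. Ahnak, a large scaffold bound by S100a10 and annexin A2, lay at 0.53 on the Th17 and Th0 array and −0.18 on the Th1 and Th0 array over 3 probes with SDs of 0.56 and 0.52.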

How the data were processed

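RNA of Th17-polarized or Th1-polarized lymphocytes was hybridised with RNA of Th0 lymphocytes, 1 array each. The deposited values were taken as the authors' log2 ratios of both channels. The unit was read from the values, in which repeated values lie apart by log2 of small whole-number ratios. Scanner, background correction and normalization are not given in the sources used here, and the files hold no intensity, so depth and signal are unknown. Probes were named from the platform annotation, updated by gene number to GRCm38.p6 symbols (26774 of 26926 one-gene probes matched, 0 symbols changed). Probes of a gene were averaged (203 probes with several genes and 9418 unnamed ones were left out). A gene was counted at an absolute log2 ratio of at least 1. No test was possible with 1 array per group. Members and the 15 gene lists were chosen with earlier results of these data known, and some genes are in several lists. Named genes were all members, up to 4 genes per list past 2-fold with the largest absolute value, 6 fixed partner genes and the 3 nearest genes of each member past 2-fold. Further S100 genes, Ifng and the remaining measured Th17 and Th1 genes of the lineage list were named in addition. A weaker channel was searched up to 5 units, at a tolerance of 0.0001 in log2. Alternatives were 3 other centrings, 3 other ways to combine probes, 2 other fold thresholds and the inclusion of probes with several genes. The counting was tested on simulated data. Python 3.11.15, pandas 2.3.3 and numpy 2.4.6 were used. RefSeq promoters matched 7 of 8 members (S100a10 had no entry).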

Additional observations from a re-analysis of the deposited data

Results flagged for a closer look

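S100a10 and S100a13 lay on opposite sides of 0 on the 2 arrays, and the difference between the arrays was not tested, since each had 1 sample. S100a10 lay at 1.34 on the Th17 and Th0 array and −0.61 on the Th1 and Th0 array, a difference of 1.95. S100a13 lay at 0.81 and −0.08 on these arrays, a difference of 0.89. The sides were the same for S100a10 when the arrays were centred on their median or on control genes, and for S100a13 when they were centred on control genes.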

How the results depend on the processing

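Each member had 1 probe, so combining probes by their median or by the largest or smallest absolute value left all 24 member values and all counts of members as they were. Centring on the median moved the arrays by 0.05 (Th17 and Th0) and 0.11 (Th1 and Th0), and centring on control genes by 0.02 and −0.25. The counts of members past 2-fold were the same under both, except that centring on control genes gave 4 positive members in the difference in place of 3. Centring on the most repeated value, which equal signals in both channels would give, moved them by 0.43 and 0.85. That value was held by 162 and 110 of the 36547 probes. After this centring the control genes had medians of 0.40 and 1.10. Under this centring 7 members (against 8.17% of all genes) were at least 2-fold positive on the Th17 and Th0 array and 5 (against 29.8%) on the Th1 and Th0 array. In the difference 1 member was positive (against 2.11%) and 1 negative (against 9.49%). A 1.5-fold threshold counted 7 positive members on the Th17 and Th0 array (7.88% of all genes), 3 on the Th1 and Th0 array (9.49%) and 4 in the difference (11.2%), and 1 negative member on the Th1 and Th0 array (16.5%) and 1 in the difference (9.33%). A 3-fold threshold counted 2 positive members on the Th17 and Th0 array (1.07%), 2 on the Th1 and Th0 array (0.989%) and 1 in the difference (1.6%). The largest shift of an array was 0.85, and 2-fold is a log2 ratio of 1. No member value past 2-fold could therefore change sign in these alternatives. Including probes with several genes moved the 48 list medians by less than the probe SD. Without replicates or intensities, neither sample spread nor signal over background could be assessed. No paired analysis was possible because each group had 1 array.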

Other observations

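Other calcium sensors with EF-hands lay on both sides. Of 29 measured genes 0 were at least 2-fold positive and 1 negative on the Th17 and Th0 array, against 2.9% and 5.52% of all genes. On the Th1 and Th0 array 1 was positive and 2 negative, near the shares of 3.27% and 6.92% of all genes. Medians were −0.02 and −0.11 on these arrays, and became 0.41 and 0.74 under centring on the most repeated value. Sdf4, which encodes a calcium-binding protein of the Golgi lumen, lay at −3.43 on the Th17 and Th0 array and −0.68 on the Th1 and Th0 array. Calb1 lay at −0.60 and −3.12, although its 2 probes differed widely on the Th1 and Th0 array (SD 2.18). Chp2 lay at 0.75 and −0.80, and Calml3 at 0.01 and −1.07.

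Genes of other proteins that leave cells without a signal peptide, and of the inflammasome, lay on both sides. Il1b, the gene of interleukin 1 beta, lay at −2.01 on the Th17 and Th0 array, opposite to S100a8 and S100a9, and at 0.61 on the Th1 and Th0 array. Casp1, the protease that matures it, lay at 1.18 on the Th17 and Th0 array and 0.47 on the Th1 and Th0 array. Hmgb1, a nuclear protein that acts as a danger signal when released, lay at 0.24 on the Th17 and Th0 array and 1.02 on the Th1 and Th0 array. Of the 9 genes on this list 1 was at least 2-fold positive and 2 negative on the Th17 and Th0 array, and 1 positive and 0 negative on the Th1 and Th0 array. The medians were −0.13 and 0.18, of which the first turned to 0.29 under centring on the most repeated value and the second to −0.08 under centring on control genes.

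The 10 measured lineage genes held 5 at least 2-fold negative and 2 positive on the Th17 and Th0 array and 6 negative and 0 positive on the Th1 and Th0 array. Il21 lay at −4.17 and −1.23 on these arrays and Gata3 at 1.28 and −1.49. The 13 measured control genes had medians of −0.02 on the Th17 and Th0 array and 0.25 on the Th1 and Th0 array, and 1 of them, Tfrc at −1.06 on the Th17 and Th0 array, was past 2-fold. Tfrc was named after its value was seen.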
